A study of Macaca mulatta with 24 samples.

Results

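CIDEC, FABP1, FABP2, CD36, DGAT1, MTTP, APOB and APOC3 are 8 genes of intestinal fat absorption, the route by which dietary fat is taken up, re-esterified and exported as chylomicrons. They were followed in the jejunum of rhesus macaques after total-body irradiation (TBI). The members were all probes that carry 1 of 10 gene symbols in the authors' normalized table. This gave 14 of 43603 probes, for 8 of the 16177 gene symbols on the array: 5 of CIDEC, 2 of APOB, 2 of MTTP and 1 each of the other 5 genes. APOA1 and APOA4, the remaining 2 of the 10, had no probe with that symbol and were not analysed here. Of the 14 probes, 13 passed the filter on dim probes and were tested. Where a gene had more than 1 probe, its brightest one, by the mean of the 24 arrays, stands for it, and the rest are described beside it. The selection used no measured value, but it was made with earlier results of these data known.

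Enterocytes, the absorptive cells of the villus, take up fatty acids and monoglycerides at the brush border, bind them in the cytosol and rebuild triglyceride in the endoplasmic reticulum. Some of this triglyceride is held in cytosolic lipid droplets, and the rest is loaded onto apolipoprotein B to make chylomicrons, which leave through the lymph. Radiation stops cell division in the crypts, and because the villus is renewed from the crypts, its supply of new enterocytes is interrupted for some days.

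The animals were young-adult males. They received a single dose of 6.7 Gy or 7.4 Gy of cobalt-60 gamma radiation, or sham irradiation, and RNA came from whole gut tissue of a jejunal segment of about 3 cm, without pooling. There were 4 sham-irradiated controls, labelled day 4, and they served every comparison. Each dose had 4 animals at 4 days, 4 at 7 days and 2 at 12 days, with 1 animal to an array, so the later days had no control of their own. A level is log2 of a probe's signal minus log2 of the 75th percentile signal on that array, and a change is a difference of such levels. A probe was called when the limma adjusted p was under 0.05 and the change was 2-fold or more.

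The arrays differed in what they detected, with 39.4% to 87.7% of probes well above background, and the arrays of slides 4 and 5 were among the lowest. All control arrays lay at position 1 of slides 1 to 4. The tissue label was checked against enterocyte markers. Of 18 listed markers, 13 had a probe of that symbol and all 13 were tested, among them LCT, ANPEP and SLC5A1, while ALPI, SI and MGAM had none. The sum of the 13 linear levels was 374 to 485 in controls. It was 283 to 449 on day 4, 261 to 425 on day 7 after 6.7 Gy, 163 to 344 on day 7 after 7.4 Gy and 317 to 479 on day 12. Markers of the distal small bowel, such as the ileal bile acid binding protein FABP6, were also present, with sums of 13.3 to 20.7 in controls, 16.2 to 101 on day 4 and 12.4 to 32.2 on day 7. On day 12 they were 82.8 to 92.9 after 6.7 Gy and 31.9 to 39.6 after 7.4 Gy, both above all controls. The part of these cells in the members' levels was not tested. In whole tissue, fewer cells of a type and less RNA per cell cannot be told apart.

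CIDEC and FABP1 were the members called against control. On day 4, CIDEC and FABP1 were down-regulated after 6.7-Gy TBI and FABP1 after 7.4-Gy TBI, in comparisons that called 1.98% and 2.6% of the 28171 tested probes (0.731% and 0.887% as lower). On day 7, none of the 8 genes was called by its brightest probe after 6.7 Gy, where 0.0639% of probes were called (0.0426% as lower), and CIDEC was down-regulated after 7.4 Gy, where 0.288% were called (0.17% as lower). On day 12, with 2 arrays per dose, none was called, and 0.0071% and 0.00355% of all probes were (0% as lower for both). No member was up-regulated against control by the brightest probe in any of the 6 groups.

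With both doses pooled in 1 model of all arrays, CIDEC and FABP1 were down-regulated at day 4, when 2.88% of probes were called and 1.08% as lower. At day 7 CIDEC was, against 0.877% of probes called and 0.451% as lower, and at day 12 no member was, against 0.0532% and 0.0355%. Of the 8 genes, 7 had a lower mean than control on day 4, 8 on day 7 and 7 on day 12. The median change over the 8 genes was -0.62, -0.56 and -0.24 log2, and over all tested probes it was -0.07, -0.02 and 0.01. The F test over the 7 groups was passed by CIDEC, APOB and FABP1, and 9.96% of all tested probes passed it. Without slides 4 and 5 none of the 3 passed (limma adjusted p of 0.109, 0.143 and 0.187). All irradiated groups were set against the same 4 controls, so their changes are not independent of each other.

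**Figure D1:**
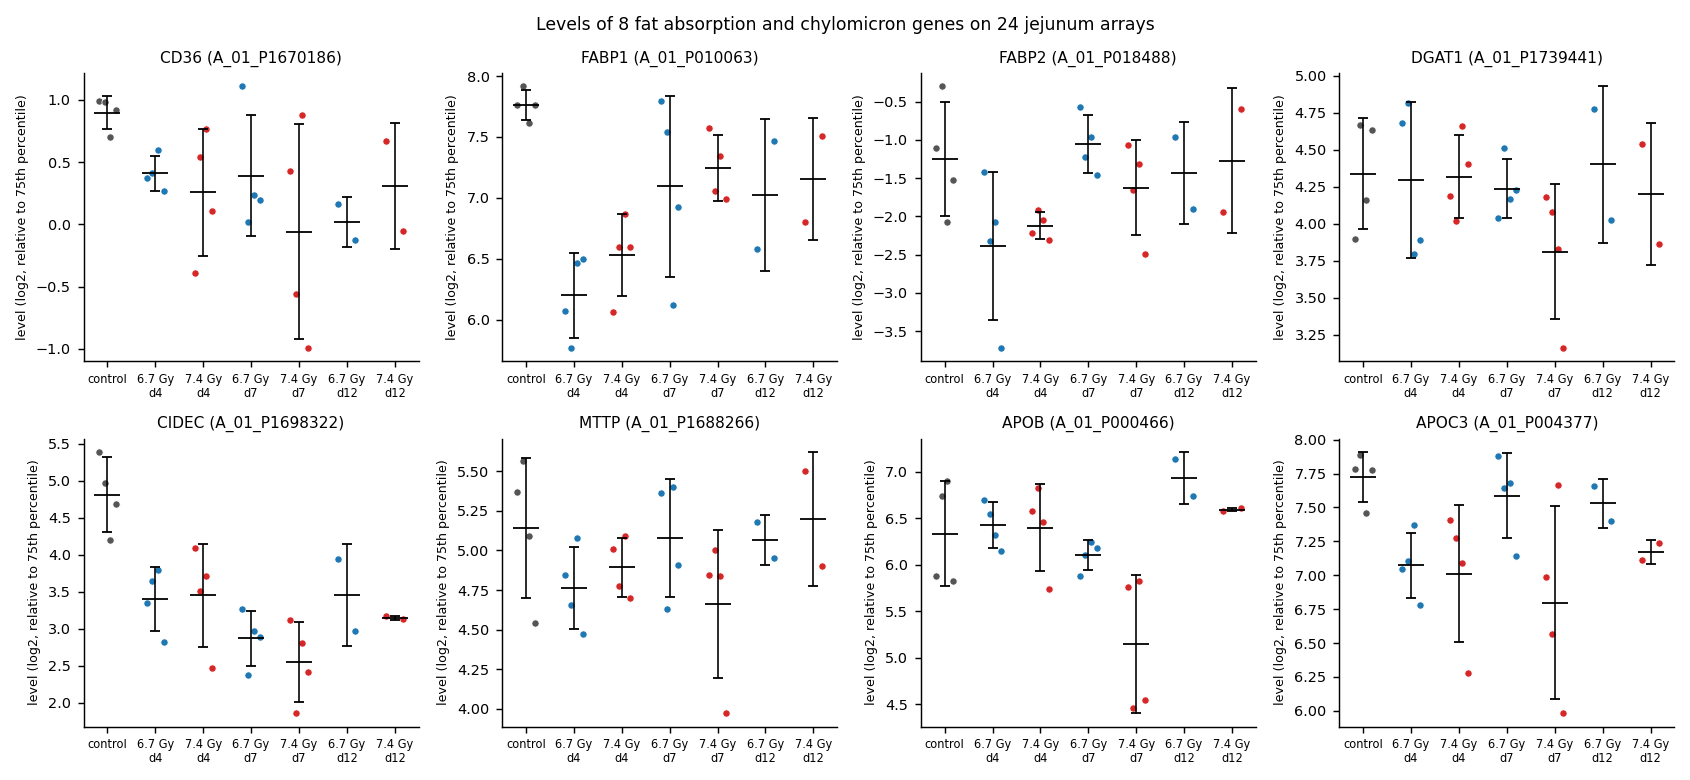
Level of each gene on each of the 24 arrays, by its brightest probe (vertical axes, log2 relative to the array's 75th percentile, scaled separately for each gene and not starting at 0). Points are arrays, grey for control, blue for 6.7 Gy and red for 7.4 Gy, the wide mark is the group mean and the bars are the SD. For CIDEC, all 20 irradiated arrays lie below the lowest control at 4.19, and for FABP1 the 8 day 4 arrays lie between 5.77 and 6.87, below the controls at 7.62 to 7.92.

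CD36, FABP1 and FABP2 act at the start of the route. CD36 is a fatty acid translocase of the brush border. Its level was 0.90 ± 0.13 (SD, n = 4) in controls, with arrays between 0.70 and 0.99. On day 4 it was 0.41 ± 0.14 (SD, n = 4) after 6.7 Gy and 0.26 ± 0.51 (SD, n = 4) after 7.4 Gy. All 4 arrays after 6.7 Gy lay below the controls, which held for 7.66% of tested probes in that direction, whereas 1 array after 7.4 Gy, at 0.77, lay among them. On day 7 the 2 dose groups spread from -0.99 to 1.11 and overlapped the controls. On day 12 the 4 arrays lay between -0.13 and 0.67, all below the controls, as for 3.03% of tested probes. None of these differences was called. Endothelial cells also express CD36. The summed linear level of 6 endothelial markers, 2.42 to 3.65 in controls, was 2.68 to 4.24 on day 4 and 1.92 to 3.68 on day 7. On day 12 it was 1.85 to 2.34, below all controls, like CD36. The part of these cells in the CD36 level was not tested. For both doses together the change was -0.56 ± 0.29 (SE) log2 at day 4, -0.73 ± 0.29 at day 7 and -0.73 ± 0.33 at day 12. These had limma adjusted p values of 0.212, 0.184 and 0.521. Over the 20 irradiated arrays, 17 lay below the lowest control, a count whose share over all tested probes was not computed.

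FABP1, the liver-type fatty acid binding protein that carries long-chain fatty acids in the enterocyte cytosol, was down-regulated on day 4 after both doses. The 4 control arrays had levels of 7.76, 7.92, 7.62 and 7.77. On day 4 the arrays had 6.08, 5.77, 6.46 and 6.50 after 6.7 Gy and 6.07, 6.60, 6.87 and 6.59 after 7.4 Gy. The controls lay within 0.30 of each other, and all 8 irradiated arrays lay below them by more than that range, without overlap. Such a separation was seen for 7.66% of tested probes after 6.7 Gy, 10.1% after 7.4 Gy and 4.93% for both doses.

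The FABP1 change on day 4 was -1.56 log2 after 6.7 Gy (a 2.96-fold fall, limma adjusted p of 0.00754) and -1.23 log2 after 7.4 Gy (2.35-fold, limma adjusted p of 0.0129). For both doses together it was -1.40 ± 0.26 (SE) log2, with a limma adjusted p of 0.00206. With the array position as a block, the change of both doses was -1.82 log2 with a limma adjusted p of 0.0671 and was not called. In that model, which held all arrays, the 7.4 Gy group was not called either (-1.79 log2, limma adjusted p of 0.312). All controls lay at position 1 and all its arrays at position 2, so position and group cannot be told apart there. The position effect came only from the 6.7 Gy day 4 arrays. The call after 7.4 Gy was also lost in limma with no filter on dim probes (0.0600), without slides 4 and 5 (0.0873) and with replicate number as a block (0.0653). That block also ended the call after 6.7 Gy (0.0636). The F test call of FABP1 (0.0231) was lost with no filter (0.0569), without control replicate 2 (0.0526) and without replicate 2 of day 4 after 6.7 Gy (0.0541).

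On days 7 and 12 FABP1 was closer to control. After 6.7 Gy the day 7 arrays had 7.79, 7.54, 6.12 and 6.93, of which the first lay within the control range. After 7.4 Gy they had 7.58, 7.06, 7.35 and 6.99, all below it, as for 5.38% of tested probes. On day 12 the levels were 6.58 and 7.47 at 6.7 Gy and 6.80 and 7.51 at 7.4 Gy, all below the controls. Such a separation was seen for 7.43% of tested probes after 6.7 Gy, 9.5% after 7.4 Gy and 3.03% for both doses. For both doses together the FABP1 change was -0.60 ± 0.26 (SE) log2 on day 7 and -0.68 ± 0.30 on day 12. Neither was called (limma adjusted p of 0.233 and 0.502).

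Between day 4 and day 7 FABP1 rose by 0.80 log2 (95% interval 0.37 to 1.24), with a limma adjusted p of 0.0126. This change was under 2-fold and so was not called, in a comparison that called 1.88% of probes and had 16.9% of probes past the adjusted p alone. Of the 8 members, CIDEC, APOB, FABP1 and FABP2 passed that adjusted p. Over 35 other settings of this comparison the FABP1 rise passed it in 34.

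FABP2, the intestinal fatty acid binding protein, had a dim probe, with levels of -1.11, -0.30, -2.07 and -1.52 in controls. On day 4 the levels were -1.42, -2.33, -2.08 and -3.72 at 6.7 Gy and -2.22, -1.91, -2.05 and -2.30 at 7.4 Gy. On day 7 they lay between -2.49 and -0.57, and on day 12 between -1.94 and -0.60. The control arrays spread over more than the difference between the groups, and every group overlapped them. The probe was well above background on 23 of 24 arrays, 1 day 4 array after 7.4 Gy being the exception. The day 4 change of both doses had a 95% interval of -1.80 to -0.21 log2, with a limma adjusted p of 0.0949, and was not called. Over 12 other settings it lay between -1.32 and -0.23 log2 and was not called in any. Between day 4 and day 7 FABP2 was higher by 0.91 log2, with a limma adjusted p of 0.0492, and it passed under 13 of 35 other settings.

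DGAT1 is 1 of the enzymes that add the last fatty acid to make triglyceride. It was not called in any comparison. The control arrays lay between 3.90 and 4.66 and the 20 irradiated arrays between 3.16 and 4.81. The group means were 4.34 ± 0.37 (SD, n = 4) in controls, 4.29 (6.7 Gy) and 4.32 (7.4 Gy) on day 4, 4.24 and 3.81 on day 7 and 4.40 and 4.20 on day 12 in the same order. For both doses together the change on day 4 was -0.03 log2 with a 95% interval of -0.53 to 0.46, which leaves out a 2-fold change in either direction. On day 7 it was -0.31 (-0.81 to 0.18) and on day 12 -0.04 (-0.61 to 0.53).

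CIDEC, also called FSP27, coats lipid droplets and promotes their growth by transfer of lipid between droplets. Of the 8 genes it had the lowest mean change from control on days 7 and 12, of which day 7 was called. The 4 control arrays had levels of 5.39, 4.97, 4.19 and 4.69. On day 4 they were 3.35, 3.65, 3.79 and 2.83 at 6.7 Gy and 4.10, 3.52, 3.71 and 2.48 at 7.4 Gy. On day 7 they were 3.26, 2.38, 2.97 and 2.89 at 6.7 Gy and 3.12, 1.86, 2.81 and 2.42 at 7.4 Gy. All 16 of these arrays lay below all 4 controls. On day 4 such a separation was seen for 7.66% of tested probes after 6.7 Gy, 10.1% after 7.4 Gy and 4.93% for both doses, and on day 7 for 3.16%, 5.38% and 1.58% in the same order. On day 12 the levels were 3.95 and 2.97 at 6.7 Gy and 3.17 and 3.13 at 7.4 Gy, also below the controls, as for 7.43% and 9.5% of tested probes. That all 20 irradiated arrays lay below every control was seen for 0.17% of tested probes.

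Ordered by group mean, CIDEC was highest in controls (4.81 ± 0.50 SD, n = 4), followed by day 12 after 6.7 Gy (3.46), day 4 after 7.4 Gy (3.45), day 4 after 6.7 Gy (3.41), day 12 after 7.4 Gy (3.15), day 7 after 6.7 Gy (2.87) and day 7 after 7.4 Gy (2.55). Each irradiated group overlapped its neighbours in this order, and only the step from control to the first of them had no overlap.

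The CIDEC change on day 4 was -1.41 log2 after 6.7 Gy (2.65-fold lower, limma adjusted p of 0.0365) and -1.36 log2 after 7.4 Gy (limma adjusted p of 0.0672, not called). On day 7 it was -1.94 log2 after 6.7 Gy (limma adjusted p of 0.0527, not called) and -2.26 log2 after 7.4 Gy (4.80-fold lower, limma adjusted p of 0.0389). On day 12 it was -1.35 and -1.66 log2, and neither was called (limma adjusted p of 0.583 and 0.368). For both doses together, CIDEC fell by 1.38 ± 0.30 (SE) log2 on day 4 and by 2.10 ± 0.30 on day 7, with limma adjusted p values of 0.00653 and 0.000917. On day 12 the change was -1.51 ± 0.35 (SE), with an adjusted p of 0.104 in limma, and it was not called.

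The calls in single dose groups depended on single arrays and on the setting. The day 4 call after 6.7 Gy was kept only without control replicate 3 and lost without any 1 of the other 7 arrays (-1.54 to -1.21 log2), and the day 7 call after 7.4 Gy was kept only without replicate 3 of that group and lost without any other array (-2.47 to -2.03). The day 4 call after 6.7 Gy was also lost under the methods' t-test (adjusted p of 0.0971). In limma it was lost with no filter on dim probes (0.116), a common floor (0.0597) and without slides 4 and 5 (0.0964). With position (0.164) or scan day (0.0621) as a block, fitted on all arrays, it was lost as well. The day 7 call after 7.4 Gy was lost under the methods' t-test (0.0947), and in limma with no filter (0.191) and without slides 4 and 5 (0.0957). Other settings added calls that the compared groups alone did not give. With slide as a block, CIDEC was called on day 7 after 6.7 Gy (-1.94 log2, limma adjusted p of 0.0185) and on day 4 after 7.4 Gy (-1.25 log2, 0.0416), and so it was in the model of all arrays (0.0201 and 0.0236) and under normexp (0.0327 and 0.0499). The calls for both doses together were kept with any 1 of the 24 arrays left out, but without slides 4 and 5 the adjusted p in limma was 0.0534 on day 4 and 0.0529 on day 7, and with position as a block it was 0.278 on day 4 (-1.24 log2).

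The 5 CIDEC probes were read side by side. Probe A_01_P1698321 changed like the brightest probe, A_01_P1698322, by -1.32 log2 on day 4 and -2.15 on day 7 for both doses, and A_01_P018030 and A_01_P1830951 by -1.38 and -1.40 on day 4 and -1.74 and -2.33 on day 7. All 4 were called on both days. Taken by dose, all 4 were called on day 4 after 6.7 Gy. After 6.7 Gy on day 7 A_01_P1698321 (-1.91 log2, limma adjusted p of 0.0490) and A_01_P1830951 (-2.23 log2, 0.0257) were called where the brightest probe was not, and on day 4 after 7.4 Gy the same 2 were called (0.0489 and 0.0384). On 3 of the 4 tested probes all 20 irradiated arrays lay below the controls, and on A_01_P018030 18 did. The fifth probe, A_01_P1757166, was well above background on 13 of 24 arrays and was not tested. These probes share the tissue and the RNA and are not replicates.

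**Figure D2:**
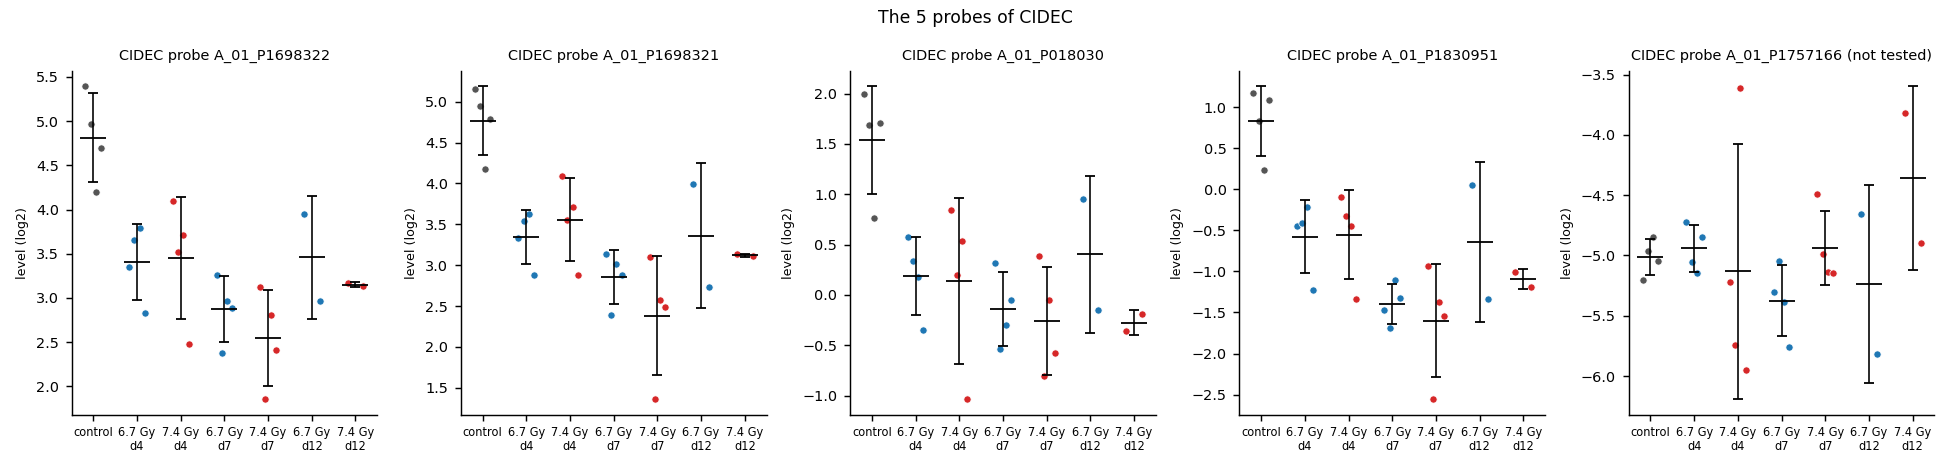
Levels of the 5 CIDEC probes on the 24 arrays (vertical axes, log2 relative to the array's 75th percentile, scaled separately). Points are arrays, grey for control, blue for 6.7 Gy and red for 7.4 Gy, with group mean and SD. On the 4 tested probes the control arrays are the highest group. The fifth probe has levels between -5.95 and -3.61.

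Within slides, CIDEC was lower than the control array of the same slide in all 12 pairs that had one, by 0.10 to 2.59 log2. The 12 pairs share the 4 control arrays and are not independent of each other. The smallest differences, -0.10 and -0.25, were on slide 3, whose control array (replicate 3) had the lowest control level. On slides 1 and 2 the 6 differences lay between -2.59 and -1.60. FABP1 was lower in 11 of 12 pairs. Its 4 day 4 differences lay between -1.55 and -1.17, and 1 day 7 array after 6.7 Gy stood 0.03 above its control. CD36 was also lower in 11 pairs, and APOC3 in 9. Of all tested probes, 1.32% were lower in all 12 pairs, 5.19% in at least 11 and 21.1% in at least 9. Day 12 after 7.4 Gy had no control on its slides.

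**Figure D3:**
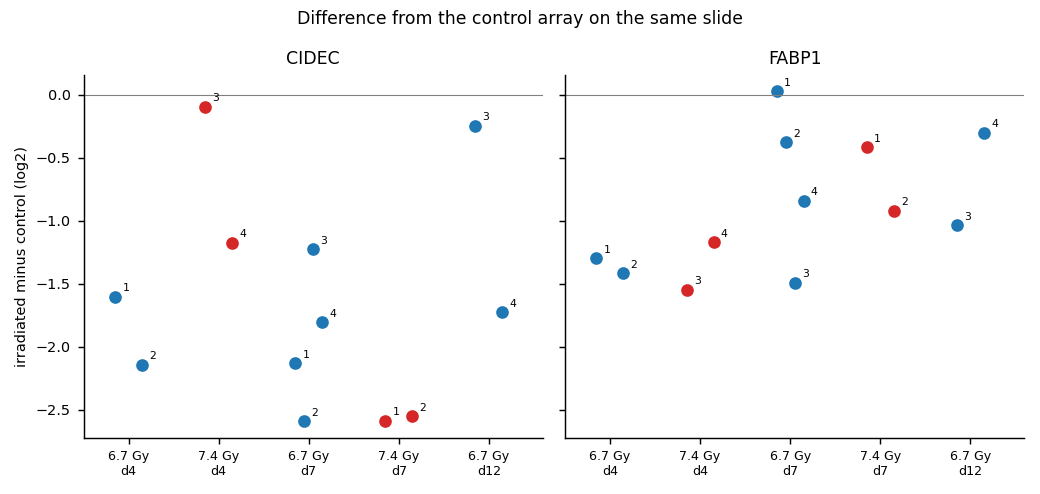
Difference in level between each irradiated array and the control array on the same slide (vertical axis, log2) for CIDEC and FABP1, by group. The number beside each point is the slide. All 12 points for CIDEC and 11 of 12 for FABP1 lie below 0.

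MTTP, APOB and APOC3 belong to chylomicron assembly. MTTP, the microsomal triglyceride transfer protein that loads lipid onto apolipoprotein B, was not called in any comparison. Its control levels lay between 4.54 and 5.56. Group means were 4.76 (6.7 Gy) and 4.89 (7.4 Gy) on day 4, 5.08 and 4.66 on day 7 and 5.07 and 5.20 on day 12, each within the control range. The lowest array was replicate 4 of day 7 after 7.4 Gy, at 3.97. For both doses together the change on day 4 was -0.31 log2, with a 95% interval of -0.76 to 0.13. The other MTTP probe, A_01_P002567, changed by 0.14 log2 on day 4 (limma adjusted p of 0.75) and was not called either.

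APOB, the structural protein of the chylomicron particle, passed the F test over the 7 groups (limma adjusted p of 0.0282) without a call against control. The control arrays had levels of 5.88, 6.74, 6.90 and 5.82, and the day 4 arrays lay between 5.74 and 6.83. On day 7 the arrays had 5.88, 6.11, 6.25 and 6.18 after 6.7 Gy and 5.76, 4.46, 5.83 and 4.55 after 7.4 Gy. On day 12 they had 7.13, 6.73, 6.58 and 6.60. APOB was thus lowest on day 7 after 7.4 Gy, where 2 arrays lay more than 1 log2 below every other array, and the other 2 lay beside the lowest controls. The 2 low arrays, replicates 2 and 4, also had the lowest sums of enterocyte markers, 203 and 163. The part of enterocyte number in this level was not tested.

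The APOB change on day 7 after 7.4 Gy was -1.19 log2 (95% interval -2.09 to -0.28), with a limma adjusted p of 0.198, and in the model of all arrays it was called. Between day 4 and day 7 of both doses APOB fell by 0.79 log2 (limma adjusted p of 0.0184, under 2-fold), which passed under 32 of 35 other settings. From day 7 to day 12 it was higher by 1.14 log2 (limma adjusted p of 0.0813), where 0.0958% of probes were called and none of the members was. The F test call was lost without replicate 2 or 4 of day 7 after 7.4 Gy (0.0883 and 0.0889), without replicate 1 of day 12 after 6.7 Gy (0.0559) and under normexp, no filter on dim probes or slide as a block (0.0604, 0.0680 and 0.0604). The other APOB probe, A_01_P1695551, was dimmer, had controls between -0.43 and 1.97 and did not pass the F test (limma adjusted p of 0.187).

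APOC3, an apolipoprotein that inhibits the clearance of triglyceride-rich particles, was not called. Control levels were 7.78, 7.89, 7.46 and 7.78. On day 4 the levels were 7.05, 7.10, 7.37 and 6.78 at 6.7 Gy and 7.40, 7.27, 7.09 and 6.28 at 7.4 Gy. All 8 day 4 arrays lay below every control, without overlap, but by a smaller margin than for FABP1. Such a separation was seen for 4.93% of tested probes (7.66% after 6.7 Gy and 10.1% after 7.4 Gy). The change of both doses on day 4 was -0.68 ± 0.24 (SE) log2, with a limma adjusted p of 0.0748. At day 7 the 6.7 Gy arrays lay between 7.14 and 7.88 and the 7.4 Gy arrays between 5.98 and 7.66, so both groups overlapped the controls. On day 12 the 2 arrays after 7.4 Gy, at 7.11 and 7.23, lay below the controls, as for 9.5% of tested probes, and the 6.7 Gy group, at 7.66 and 7.40, overlapped them.

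**Figure D4:**
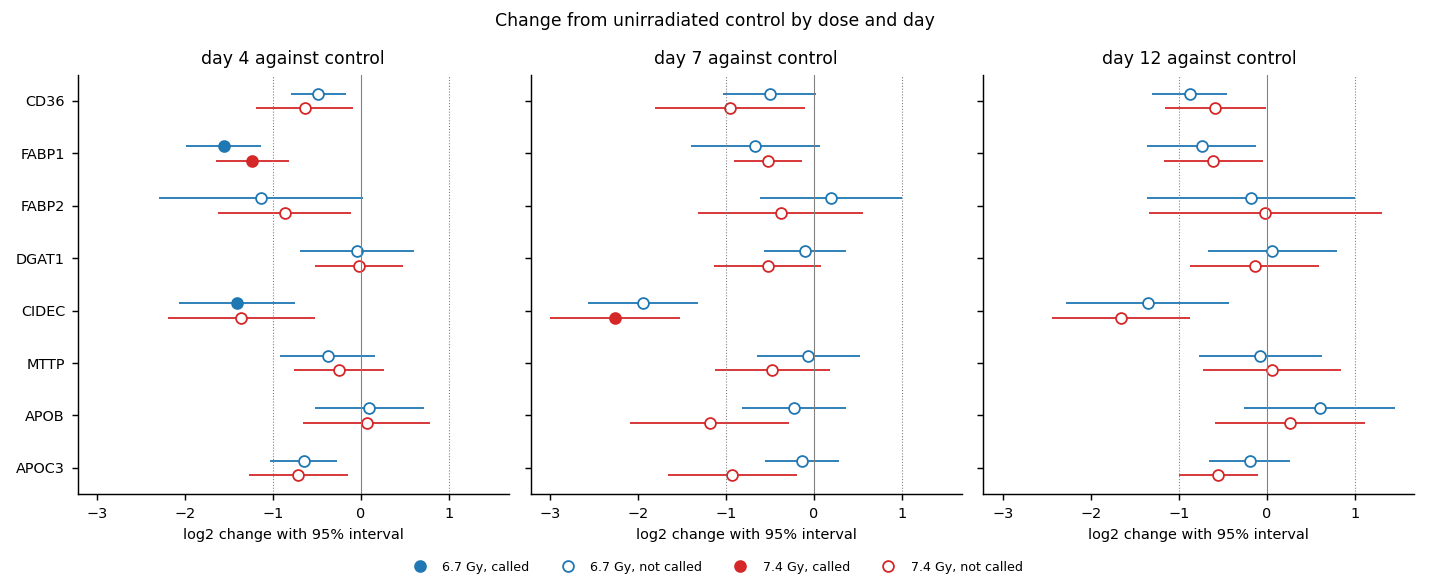
Change from control of the 8 genes by dose and day (horizontal axes, log2, with 95% intervals from limma on the arrays of each group and control). Filled points passed both the adjusted p and the 2-fold limit, open points did not, and dotted lines mark 2-fold. FABP1 on day 4 after both doses, CIDEC on day 4 after 6.7 Gy and CIDEC on day 7 after 7.4 Gy are filled.

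The next comparison was between the doses. No member was called on day 4, 7 or 12, and 0% of all probes were on each day. On day 12 the 6.7 Gy arrays lay on slides 3 and 4 and the 7.4 Gy arrays on slides 5 and 6, scanned on another day. Dose on day 12 thus cannot be told apart from slide and scan day. On day 7 the 6.7 Gy arrays lay on slides 1 to 4 and the 7.4 Gy arrays on slides 1, 2, 5 and 6. At an unadjusted p under 0.05 with a 2-fold limit, 78, 207 and 531 probes passed in limma, none of them the brightest probe of a member, while the second APOB probe did on day 7 (-1.32 log2, adjusted p of 0.808). On day 7, 7 of the 8 genes were lower after 7.4 Gy than after 6.7 Gy, with a median of -0.44 log2 against -0.03 over all tested probes. The largest differences were APOB, -0.95 log2 (95% interval -1.60 to -0.31), and APOC3, -0.79 (-1.37 to -0.20), with limma adjusted p values of 0.808 each. On that day the median sum of enterocyte markers was 238 after 7.4 Gy and 347 after 6.7 Gy. Relative to that sum on the same array, APOB, APOC3 and FABP2 had the lower group mean after 7.4 Gy, and CIDEC, MTTP, DGAT1, FABP1 and CD36 the higher one. The part of enterocyte number in the dose differences was not tested. CIDEC differed between the doses by 0.05 log2 (-0.67 to 0.77) on day 4 and by -0.32 (-1.04 to 0.40) on day 7. FABP1 differed by 0.33 (-0.29 to 0.95) on day 4. The F test of dose by day was passed by none of the members and by 0% of all probes.

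The days differed for some members. Day 7 against day 4, both doses together, gave changes of opposite sign: CIDEC was lower by 0.72 log2 on day 7 (95% interval -1.23 to -0.21, limma adjusted p of 0.0494) and APOB by 0.79, while FABP1 and FABP2 were higher by 0.80 and 0.91. None reached 2-fold. The CIDEC difference passed under 16 of 35 other settings. On day 12 against day 4, where 3.43% of probes were called, no member was, and FABP1 was higher by 0.72 log2 (limma adjusted p of 0.0666). APOC3, MTTP, DGAT1 and CD36 had intervals that included 0 in all 3 comparisons of days.

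To set the members against the enterocyte markers of the same array, the log2 of the marker sum was subtracted from each level. None of the 8 genes is among those markers. For CIDEC the result was -4.60 to -3.41 in controls, -5.67 to -4.67 on day 4, -6.14 to -4.94 on day 7 and -5.43 to -4.95 on day 12. All 20 irradiated arrays remained below every control on this scale, with group means 1.14 to 1.58 below control, and 0.0284% of all tested probes were separated in this way. Where the sum is lower than in controls, the subtraction raises every probe of that array. For FABP1 the 8 day 4 arrays also stayed below the controls (-2.85 to -1.55 against -1.18 to -0.78), as did 0.923% of tested probes, whereas on day 7 after 7.4 Gy the arrays lay between -1.08 and -0.36. Below the lowest control on this scale were 11 of the 20 irradiated arrays for FABP1, against 19 by the level itself, 11 for CD36 (17 by level), 8 for APOC3 (15), 4 for FABP2 (6), 1 for APOB (4), 1 for DGAT1 (5) and 0 for MTTP (2). For APOC3 on day 4 these were all 4 arrays after 6.7 Gy, as for 2% of tested probes, and 3 of 4 after 7.4 Gy, so the day 4 separation from control was not complete on this scale. Shares of all tested probes for these counts over the 20 arrays were not computed. The lower counts on this scale are therefore not a result about these genes. Adipocytes also express CIDEC. Of 11 adipocyte markers, 6 were on the array and tested, and PLIN1, LIPE, LPL, CFD and RBP4 had no probe of that symbol. Their summed linear level was 20.6 to 42.5 in controls, 24.4 to 54.3 on day 4, 11.7 to 39.0 on day 7 and 25.1 to 46.0 on day 12. The day 4 and day 12 sums overlapped the controls, and on day 7 the lowest lay below them. On day 4, 1 of the 6 was called, GPD1 (-1.13 log2), when 1.08% of all tested probes were called as lower. The other 5, not called, were ADIPOQ (-1.62), CIDEA (-1.38), LEP (-0.46), PCK1 (-0.17) and FABP4 (0.15), and none of the 6 was called on day 7 or 12. The part of either cell type in the CIDEC change was not tested.

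Other genes of the route were read from 7 lists chosen for their role, with the members left out, for both doses together. In uptake and cytosolic binding, 9 of 18 genes were tested and 2 were called on day 4, when 2.88% of all tested probes were. RBP2, the cellular retinol binding protein of the enterocyte, fell by 1.47 ± 0.24 (SE) log2 on day 4 (limma adjusted p of 0.000851) from a control level of 7.62 ± 0.14 (SD, n = 4), and FABP6 rose by 4.79 ± 1.11. ACSL3 and FABP5 had day 4 changes of -0.80 and 0.60 log2 and were under 2-fold. No gene of the list was called on day 7 or 12. In triglyceride synthesis none of 9 tested genes was called on any day. Its lowest F test p belonged to MOGAT2, the monoacylglycerol acyltransferase of the enterocyte, at -0.83 ± 0.16 (SE) log2 on day 4 (limma adjusted p of 0.00326, under 2-fold). AGPAT5 and AGPAT2, which acylate lysophosphatidic acid, were at 0.75 and -0.41.

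In chylomicron assembly and apolipoproteins, 17 of 26 genes were tested and 2 were up-regulated on day 4, when 2.88% of all tested probes were called. PLTP, the phospholipid transfer protein, rose by 1.59 ± 0.31 (SE) log2 and APOE by 1.15 ± 0.25, with limma adjusted p values of 0.00306 and 0.00629. APOE is also made by macrophages, whose marker CD14 rose by 1.09 log2 on the same day, and the part of those cells was not tested. The 4 macrophage markers on the array had sums of 6.98 to 7.59 in controls, where MARCO was not well above background, and 6.75 to 12.9 on day 4. A1CF, a cofactor of APOB mRNA editing, was at -0.93 ± 0.22 (SE) log2 on day 4 and under 2-fold. On days 7 and 12 none of the 17 was called.

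In lipid droplet and lipolysis, all 14 genes on the array were tested, and 2 were down-regulated on day 4 and 2 on day 7, when 1.08% and 0.451% of all tested probes were called as lower. CIDEB, a relative of CIDEC that acts in lipoprotein lipidation, fell on days 4 and 7, by 1.22 ± 0.21 (SE) and 1.03 ± 0.21 log2 (limma adjusted p of 0.00114 and 0.0141). ABHD5, the coactivator of the lipase PNPLA2, fell by 1.23 ± 0.22 on day 4, and G0S2, an inhibitor of the same lipase, fell by 1.13 ± 0.23 on day 7. The other 11 were not called on any day. The median of the list was -0.41 log2 on day 4, -0.31 on day 7 and -0.34 on day 12, against -0.07, -0.02 and 0.01 over all tested probes.

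In fatty acid oxidation and ketogenesis, EHHADH, a peroxisomal enzyme, was down-regulated on day 4, at -1.28 ± 0.28 (SE) log2, when 1.08% of all tested probes were called as lower. SLC25A20, the carnitine carrier, was at -0.40 and was not called. In cholesterol handling, SOAT2, which esterifies cholesterol, was at -0.95 ± 0.20 (SE) on day 4, under 2-fold for both doses, and was called on that day after 6.7 Gy. NPC1L1, the cholesterol transporter of the brush border, was at 0.42 and was not called. Among 13 tested regulators, GATA4 (-1.10 ± 0.20 SE), ONECUT2 (-1.24 ± 0.23) and NR0B2 (-1.33 ± 0.40) were down-regulated on day 4, when 1.08% of all tested probes were called as lower, and none was called on days 7 or 12. NR1H3, an oxysterol receptor, was at -0.49 on day 4.

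For 5 of the 7 lists, the counts past the F test over the 7 groups were 5 of 9 tested genes in uptake, 2 of 9 in triglyceride synthesis, 5 of 17 in chylomicron assembly, 3 of 14 in the droplet list and 3 of 13 regulators. Over all tested probes it was 9.96%. FABP6, CD14, GPD1 and NR0B2 fall outside the rule for named genes and were chosen after their values were seen.

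**Figure D5:**
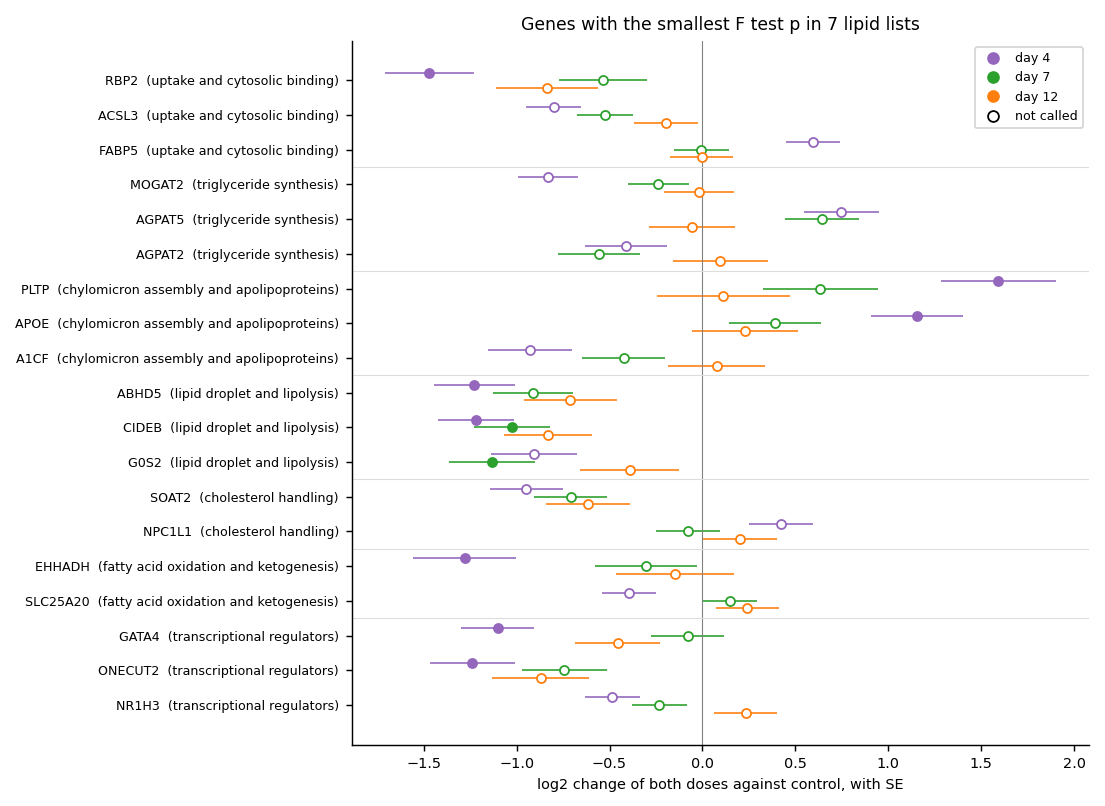
Change of both doses against control (horizontal axis, log2, bars are the SE) on days 4, 7 and 12 for genes with the smallest F test p, at most 3 a list, in 7 lists of lipid genes. Filled points were called. Of the genes shown, RBP2, ABHD5, CIDEB, EHHADH, GATA4 and ONECUT2 lie left of -1 and PLTP and APOE right of 1 on day 4, and CIDEB and G0S2 lie left of -1 on day 7.

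The genes whose levels followed each member most closely over the 24 arrays were taken from the 9608 probes that carried a gene symbol other than a member's and were well above background on all arrays, by Pearson's r. Arrays of 1 group and slide share these levels, so r is a description. For CIDEC they were RAB30 (r = 0.88), IFRD1 (0.87) and C2CD2L (0.87). For FABP1 they were ECI1, an enoyl-CoA isomerase of fatty acid oxidation (0.82), LOC698670 (0.80) and KRTCAP3 (0.79). For APOB they were SEPP1 (0.82), AQP3 (0.78) and ANPEP, a brush border peptidase (0.78). For APOC3 they were LOC721989 (0.95), CYP3A5 (0.87) and LOC719764 (0.86), and for MTTP KRT20, a keratin of mature enterocytes (0.86), AP3S1 (0.85) and CLRN3 (0.83). For DGAT1 they were ATF6 (0.75), AGPAT2 (0.73) and TTL (0.72), for CD36 PCNX (0.84), ENPP7 (0.81) and LOC709844 (0.79), and for FABP2 SPG21 (0.81), LOC719873 (0.80) and LOC713204 (0.80). Among the members themselves, r was highest for APOC3 with CD36 (0.65) and lowest for APOB with FABP1 (-0.19), and CIDEC with FABP1 had 0.21.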

How the data were processed

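Jejunum RNA from 24 rhesus macaques was measured on 1-colour Agilent arrays. The deposited scanner files hold 1 background-corrected intensity per spot, extracted per the file headers with Agilent Feature Extraction 11.0.1.1 on a grid annotated on rheMac2. The authors also deposited log2 values, scaled to the 75th percentile and centred on each probe's median, used here as an alternative.

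Spots of 1 probe were averaged, and log2 intensity minus the array's 75th percentile was the level. Probes that some group had well above background throughout were tested (28171 of 43603 probes, 64.6%). Tests used limma 3.58.1 in R 4.3.3 with Benjamini-Hochberg adjustment over these probes, on the compared groups alone for each dose and day against control and in 1 model of the 7 groups otherwise. Slide, position and scan day as blocks were always fitted in the model of all arrays. Scripts were tested on simulated data. Depth does not apply to arrays, and their number limits the precision. The labels do not say how replicate numbers were given, and p-values measure the spread between samples. The labels' day and title give 12 days for the last group, which was used, and their protocol text another day.

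The members, lists and rules were chosen with earlier results of these data known. Named are all members and, per list, the 3 genes with the smallest F test p, except some items not reported here. No sequences or coordinates are given. Alternatives were another background correction, scaling, filter, floor, blocks, the methods' t-test and leaving out arrays.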

Additional observations from a re-analysis of the deposited data

Results flagged for a closer look

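MTTP on day 7 after 7.4 Gy had 1 array apart from the rest of its group: replicate 4 lay at 3.97 and the other 3 between 4.84 and 5.00, a gap of 0.844 of the group's range, above Dixon's 95% critical value for 4 arrays. This was 1 of 40 groups of 4 arrays examined, and chance flags about 1 in 20. The same array had the lowest sum of enterocyte markers of all 24 arrays, 163, and the lowest level of APOC3, DGAT1 and CD36. The part of enterocyte number in it was not tested.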

How the results depend on the processing

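The counts of called members depended on the setting. After 6.7 Gy on day 4, 2 members were called, and 1 under the methods' t-test, no filter on dim probes, a common floor, position or scan day as a block, or without slides 4 and 5 (a setting chosen after seeing the data). With 1 array left out it was 1 to 2. After 6.7 Gy on day 7, 0 were called, and 1 (CIDEC) under normexp, scaling over probes detected on all arrays, slide or scan day as a block, all arrays in 1 model or the mean over a gene's probes. After 7.4 Gy on day 4, 1 was called, 2 under normexp, slide as a block or all arrays in 1 model, and 0 with no filter, position as a block or without slides 4 and 5. Position was fitted there in the model of all arrays, with its effect taken from the 6.7 Gy day 4 arrays alone. After 7.4 Gy on day 7, 1 was called, 2 with all arrays in 1 model, and 0 under the t-test, no filter or without slides 4 and 5. With 1 array left out it was 0 to 1. For both doses, day 4 had 2 calls, 0 with position as a block and 1 (FABP1) without slides 4 and 5, and day 7 had 1 call and 0 without slides 4 and 5. Neither changed when any 1 array was left out. Day 7 against day 4 had 0 calls, 1 (FABP2) with slide or scan day as a block, and 0 to 1 with 1 array left out. The F test was passed by 3 members, by 1 with no filter, by 0 without slides 4 and 5 and by 2 to 4 with 1 array left out. The other counts stayed at 0 in the settings run.

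Replicate numbers did not pair the samples: deviations of same-numbered arrays correlated between -0.17 and 0.33, over 0.1 in 15 of 62 pairs. Arrays of the same slide did deviate together more often, with a median correlation of 0.14, over 0.1 in 25 of 36 pairs against 16 of 208 pairs from different slides. With the replicate block, 0 members were called after 6.7 Gy on day 4, 0 after 7.4 Gy on day 4 and 0 after 7.4 Gy on day 7 (CIDEC adjusted p in limma of 0.110 and 0.161 in the first and last).

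Some uncalled changes near 0 turned in sign. APOB on day 4 (0.08) was -0.28 as the mean over probes, -0.26 without slides 4 and 5 and -0.0926 to 0.27 with 1 array left out. MTTP on day 12 (-0.01) was 0.14 as the mean over probes and -0.21 to 0.14 with 1 array left out. DGAT1 on day 4 (-0.03) was 0.0382 with scaling over detected probes, 0.13 after quantile normalization, 0.65 with position as a block and -0.18 to 0.0769 with 1 array left out, and on day 12 (-0.04) 0.0775 without slides 4 and 5 and -0.23 to 0.15. FABP2 on day 7 (-0.09) was -0.36 to 0.23 with 1 array left out, and on day 12 (-0.10) 0.16 under normexp, 0.38 without slides 4 and 5 and -0.44 to 0.24.

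Position could not be fitted for days 7 and 12 against control or day 4, nor for the F tests, and the t-test was run for single doses only. The 7.4 Gy day 4 arrays shared no position with the controls, so that comparison cannot tell position from group. Dim probes limit FABP2 and the fifth CIDEC probe. The causes of these changes were not tested.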

Other observations

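A second probe described as FABP1, A_01_P1699446, carries no member symbol in the authors' table. It was dimmer, at -0.91 ± 0.57 (SD, n = 4) in controls, -1.68 ± 0.67 (SD, n = 4) on day 4 after 6.7 Gy and -1.83 ± 0.58 (SD, n = 4) on day 4 after 7.4 Gy. The changes of -0.77 and -0.92 log2 had the direction of the member probe and were not called (limma adjusted p of 0.281 and 0.155). A probe for a transcript described as similar to APOA4, A_01_P1774851, was well above background on 1 of 24 arrays, so no change is given.

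All 4 tested markers of proliferating crypt cells, TOP2A, CCNB1, CDK1 and AURKA, were up-regulated on day 7 for both doses together. They rose by 1.14 to 1.27 log2, with limma adjusted p values of 0.00985 to 0.0315. On that day 0.877% of all tested probes were called. None was called on day 4 or 12. The thyroid hormone carrier TTR, a hepatocyte marker, rose by 1.82 ± 0.25 (SE) log2 on day 7 and was 1 of 4 tested hepatocyte markers called, the others being FGB (0.72), SERPINA1 (0.46) and HP (-0.25). The summed linear level of the 7 hepatocyte markers on the array was 2.47 to 7.22 in controls, 6.03 to 12.1 on day 7 after 6.7 Gy and 8.36 to 11.7 on day 7 after 7.4 Gy. Higher sums were not particular to day 7, with 4.70 to 20.2 on day 4 and 6.42 to 13.0 on day 12. The part of such cells was not tested. The brush border genes VIL1, on day 4 (-1.29 log2), and TREH, on day 7 (-1.47), were the enterocyte markers called, 1 of 13 on each day, when 1.08% and 0.451% of all tested probes were called as lower. These genes were chosen after their values were seen.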
